A study of Mus musculus with 5 samples.

Results

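Complement is a cascade of proteins that tags surfaces for removal. The 8 genes described here encode parts of it: the 3 subunits of C1q (C1qa, C1qb, C1qc), the components C3 and C4 (C3, C4b), the receptors for the fragments C3a and C5a (C3ar1, C5ar1) and Itgam, the alpha chain of complement receptor 3. They were chosen by symbol, and each of the 8 matched 1 of the 32285 gene features in all 5 matrices. The data are single-nucleus RNA and chromatin accessibility (10x Multiome) of mouse hippocampus, with 1 library for each of 5 genotypes: wild type, 5xFAD, and 5xFAD with MAGL knocked out in astrocytes, in neurons or globally. The 5xFAD mouse carries human amyloid precursor protein and presenilin transgenes under the neuronal Thy1 promoter and forms amyloid plaques. All groups but wild type carry these transgenes, and MAGL, encoded by Mgll, is the enzyme that degrades the endocannabinoid 2-arachidonoylglycerol. The labels do not state the mice's age or sex, the number of animals pooled into a library, or the Cre drivers of the knockouts.

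C1q binds antibody complexes and other ligands and starts the classical pathway, in which C4 and then C3 are cleaved. C3 fragments are bound by complement receptor 3, and the small fragments C3a and C5a act on C3ar1 and C5ar1. In the brain, microglia are the known main source of C1q, and C1q, C3 and complement receptor 3 are known for the removal of synapses.

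With 1 library per genotype no difference between genotypes could be tested. Levels are unique molecular identifiers (UMIs) summed over the nuclei of a class and scaled to 1000000 UMIs of that class and library (CPM, counts per this number), with exact 95% Poisson intervals in brackets. Intervals of ratios are exact conditional binomial intervals, and those of shares are Clopper-Pearson intervals. All of them cover counting error only, not the spread between nuclei or between mice. A gene counts as past 2-fold where its CPM ratio was at least 2, or at most the inverse, with at least 20 UMIs over the 2 libraries compared. CPM is not adjusted for gene length, so each gene is compared with itself across classes and libraries. In nuclei, fewer transcripts per nucleus and a different mix of nuclei within a class cannot be told apart.

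The 5 libraries held 4050 to 7498 nuclei and 101931020 to 159532813 UMIs, and 26782 of 28142 nuclei were used. Microglia numbered 43 in wild type, 81 in 5xFAD, and 122, 53 and 91 in the knockout libraries (astrocyte, then neuron, then global). Oligodendrocytes numbered 312, 308, 311, 267 and 218 in the same order, which is kept below. Another 5307 nuclei belonged to clusters left unnamed. Some of these clusters did match a marker list but seemed to mix the sexes within single nuclei. The unnamed cluster of 695 nuclei, for example, scored 2.04 for excitatory neurons against 0.365 for the next class. A share of 0.554 of it carried transcripts typical of both sexes, at a median depth of 52645 UMIs per nucleus. A class was given only under a set limit of this share. The highest share in clusters with a class, 0.338, is thus bounded by that rule. All 14 microglial markers were detected in the microglia of every library, and at most 2 of 7 border macrophage markers and 1 of 8 T cell markers were, with summed levels up to 15.6 and 5.95 CPM. Between 134 and 223 barcodes per library also occurred in another library. Mgll UMIs were not lost in the knockout libraries: astrocytes had 455, 296, 483, 380 and 316 CPM and excitatory neurons 73.6, 74.2, 94.7, 97.3 and 85.5 CPM. UMIs of this assay do not tell a deleted exon, so this does not check the labels, and each knockout below is the library labelled so. Nuclei with Xist and no Y-linked UMI made up 58.0%, 41.3%, 58.3%, 82.0% and 58.0% of the nuclei that could be called by these genes. The libraries thus held nuclei of both sexes in unequal shares, and several ratios of C1q and C4b are given for both kinds of nuclei.

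The 3 C1q genes lie next to each other on the minus strand of chromosome 4, within chr4:136880129-136898803, a span of 18675 bases (GRCm38, GENCODE annotation). The order along the span is C1qb (136880129 to 136886187), C1qc (136889804 to 136893065) and C1qa (136895917 to 136898803). The promoters of C1qb and C1qc are shown because accessible regions called by the authors overlapped them and because both genes were higher together in some libraries. They are RefSeq sequences of GRCm38.p6, from 250 bases before to 50 after the start RefSeq gives, 5′ to 3′ on the minus strand: C1qb at chr4:136886151-136886450 and C1qc at chr4:136892865-136893164. The GENCODE starts above lie 36 and 200 bases from the lower end of these windows, so the annotations place the starts differently. Capitals mark matches to GGAAGT on either strand, the core bound by ETS factors, a family to which the myeloid regulator PU.1 belongs.
C1qb: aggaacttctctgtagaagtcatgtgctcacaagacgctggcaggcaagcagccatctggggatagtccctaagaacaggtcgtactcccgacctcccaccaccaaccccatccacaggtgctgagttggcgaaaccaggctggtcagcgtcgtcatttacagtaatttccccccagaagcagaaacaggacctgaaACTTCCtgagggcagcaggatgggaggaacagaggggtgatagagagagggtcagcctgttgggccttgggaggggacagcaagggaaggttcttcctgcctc
C1qc: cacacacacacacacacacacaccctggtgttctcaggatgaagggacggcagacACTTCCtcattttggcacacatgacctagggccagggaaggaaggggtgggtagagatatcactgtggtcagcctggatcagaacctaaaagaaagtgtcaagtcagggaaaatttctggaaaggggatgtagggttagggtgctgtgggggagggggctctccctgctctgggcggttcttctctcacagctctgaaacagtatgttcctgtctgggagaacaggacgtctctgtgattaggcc
Each holds 1 match to GGAAGT, and 23.8% of 32851 promoters of the same length held at least 1. The match in C1qc is part of a longer match to GAGGAAGT, a PU.1 form of this core, which 3.20% of the promoters held. A promoter sequence was at hand for 6 of the 8 genes. C5ar1 held 2 matches to GGAAGT and C3, C3ar1 and Itgam none. Of the other motifs searched on both strands, the interferon response element (in 3.44% of promoters), TTCNNNGAA (STAT, 8.30%) and GGGANTTCC (NF-kappaB, 1.68%) matched none of the 6, and TTGCGNAA (C/EBP, 0.798%) matched C3 once. A match of letters is a description and not a bound site.

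C1q transcripts were microglial in every library. The levels of the 3 subunits ranged from 830 to 2000 CPM in microglia, against 0 to 6.91 CPM in oligodendrocytes, 0 to 10.1 CPM in their precursors, 0 to 23.2 CPM in astrocytes, 0.339 to 1.99 CPM in excitatory neurons and 0.438 to 2.95 CPM in inhibitory neurons. In the other glial classes each gene rested on 6 to 19 UMIs per class over the 5 libraries, too few to order these classes. A C1qa UMI was found in 93.4% to 98.1% of microglia, and all 3 subunits in 318 of 390 microglial nuclei (81.5%), with none of the 3 in 5 nuclei. The share with all 3 was 74.4% in wild type, 77.8% in 5xFAD and 82.0%, 92.5% and 81.3% in the knockout libraries, at median depths of 2146, 2521, 2038, 2870 and 2111 UMIs per nucleus.

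**Figure D1:**
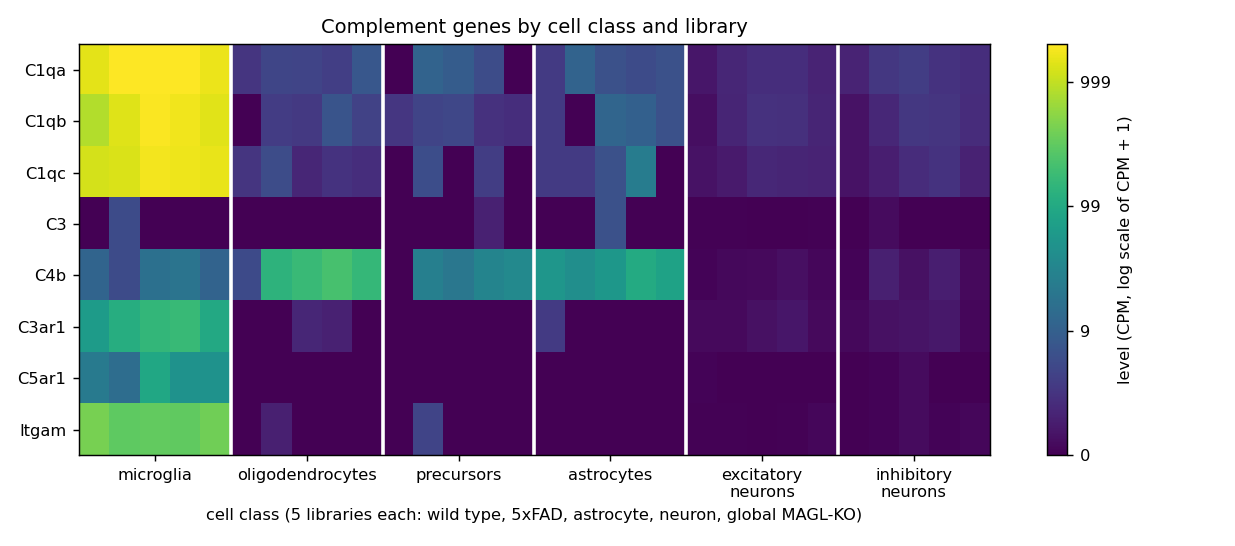
Heat map of the level of each complement gene (rows) in 6 cell classes, each with the 5 libraries as columns in the order wild type, 5xFAD, astrocyte, neuron and global MAGL-KO. Color is CPM on a log scale of CPM + 1. The 3 C1q genes are brightest in microglia (830 to 2000 CPM), C4b in oligodendrocytes outside wild type, and C3 is dark in all columns.

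C1qa, which encodes the A chain of C1q, had 1482 [1247, 1747] CPM in wild type microglia, 1974 [1789, 2174] in 5xFAD, 1986 [1817, 2167] in astrocyte MAGL-KO, 2000 [1792, 2226] in neuron MAGL-KO and 1589 [1416, 1777] in global MAGL-KO. Wild type and the global knockout were low and the other 3 libraries lay close together, with intervals that overlapped. The ratio of 5xFAD to wild type was 1.33 [1.10, 1.63]. Split by kind of nuclei, it was 1.11 [0.849, 1.48] (Xist) and 1.86 [1.31, 2.69] (Y-linked UMIs). Against 5xFAD the ratio was 1.01 in both the astrocyte and the neuron knockout and 0.805 [0.692, 0.935] in the global knockout. With classes taken from the highest marker score the last became 0.05 on the log2 scale, from -0.31. In the global knockout it was 0.977 [0.798, 1.20] with Xist and 0.629 [0.452, 0.863] with Y-linked UMIs. In the astrocyte knockout the 2 kinds stood at 1.20 [0.999, 1.44] and 0.815 [0.639, 1.04], and in the neuron knockout at 1.22 [1.01, 1.47] and 0.880 [0.606, 1.25].

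C1qb, the B chain, had 830 [657, 1035] CPM in wild type, 1380 [1226, 1548] in 5xFAD, and 1935 [1768, 2114], 1696 [1505, 1905] and 1433 [1269, 1612] in the astrocyte, neuron and global knockouts. The wild type interval lay below those of all 4 other libraries. The ratio of 5xFAD to wild type was 1.66 [1.29, 2.16] (1.34 [0.940, 1.94] in Xist nuclei and 2.16 [1.39, 3.48] in nuclei with Y-linked UMIs), and against 5xFAD the knockouts stood at 1.40 [1.21, 1.63], 1.23 [1.04, 1.45] and 1.04 [0.878, 1.23]. C1qc, the C chain, had 1229 [1017, 1473], 1285 [1136, 1447], 1746 [1587, 1916], 1661 [1472, 1867] and 1532 [1362, 1717] CPM in the same order. Its 5xFAD level was close to that of wild type, at a ratio of 1.05 [0.838, 1.31], but this pooled 0.797 [0.578, 1.11] in nuclei with Xist and 1.45 [1.00, 2.13] in those with Y-linked UMIs. The knockouts stood at 1.36 [1.17, 1.59], 1.29 [1.09, 1.53] and 1.19 [1.01, 1.41] of 5xFAD. The 3 subunits are assembled into 1 protein, and their ratios to 5xFAD were not alike in value: C1qa was level between 5xFAD and the astrocyte and neuron knockouts, where C1qb and C1qc were higher. The differences between genes were not tested.

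The summed C1q level was 3541 CPM in wild type, 4639 in 5xFAD and 5667, 5357 and 4554 in the knockouts. No C1q gene was past 2-fold in any of the 4 comparisons of microglia. In 5xFAD against wild type, 0 of the 5 complement genes with enough UMIs were past 2-fold in either direction, while 10.8% of 3298 genes were past it as higher and 4.94% as lower. The remaining comparisons, each against 5xFAD, share that control library. For the astrocyte knockout 1 of 6 complement genes was past 2-fold (C5ar1, below), against 4.54% of all genes higher and 3.57% lower. It was 0 of 5 for the neuron knockout (4.19% higher, 4.27% lower over all genes) and 0 of 5 for the global knockout (3.23% and 4.11%).

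**Figure D2:**
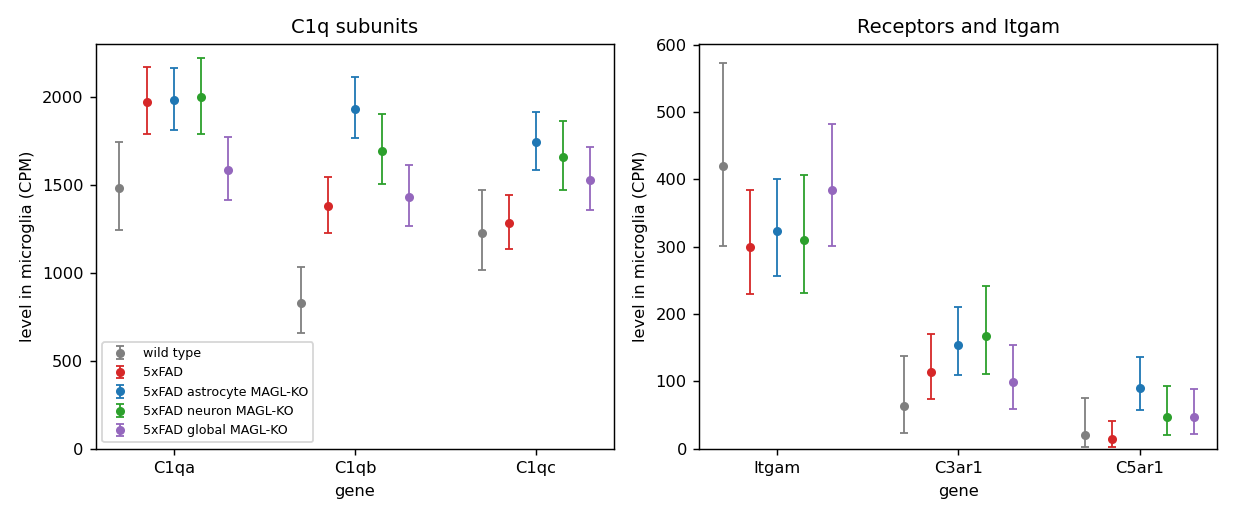
Levels in microglia (CPM, linear axis from 0) of the C1q subunits on the left and of Itgam, C3ar1 and C5ar1 on the right. Points are the 5 libraries and bars are 95% Poisson intervals, which cover counting error only. C1qb is lowest in wild type (830 CPM) and highest in astrocyte MAGL-KO (1935 CPM), and the C5ar1 point of astrocyte MAGL-KO (90.6 CPM) stands above that of 5xFAD (14.3 CPM).

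For the astrocyte and global knockouts, the ratios of C1qb and C1qc to 5xFAD were not the same in the 2 kinds of nuclei. In microglia with Xist, C1qb had 856, 1146, 2112, 1652 and 1477 CPM, and the ratio of astrocyte MAGL-KO to 5xFAD was 1.84 [1.5, 2.27] (76 against 43 nuclei). In microglia with Y-linked UMIs it had 750, 1622, 1343, 2367 and 1496 CPM, and that ratio was 0.828 [0.619, 1.10] (30 against 29 nuclei). For C1qc the ratio was 2.03 [1.63, 2.54] with Xist and 0.720 [0.535, 0.965] with Y-linked UMIs. The global knockout stood at 1.29 [1.02, 1.63] of 5xFAD for C1qb with Xist and 0.922 [0.656, 1.28] with Y-linked UMIs, and at 1.61 [1.27, 2.05] for C1qc with Xist and at 0.739 [0.514, 1.05] with Y-linked UMIs. The neuron knockout was above 5xFAD in both kinds, at 1.44 [1.16, 1.80] and 1.46 [1.02, 2.07] for C1qb and at 1.67 [1.32, 2.11] and 1.28 [0.881, 1.83] for C1qc. Its Y-linked values are the weakest, on 47 UMIs of C1qb and 43 of C1qc, against 114 and 119 in 5xFAD. The Y-linked interval of C1qc included 1. In 5xFAD the Xist nuclei were low in both genes and the Y-linked nuclei high, at 974 and 1693 CPM for C1qc. The higher C1qb and C1qc of the astrocyte knockout were thus seen in nuclei with Xist and not in those with Y-linked UMIs, though the difference between the kinds was not tested.

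Microglia fell into 5 clusters made without the complement genes. Among their leading genes were Tmem119 and P2ry12 in m0 (165 nuclei), Apoe in m1 (117), and Lpl, Spp1 and Igf1 in m2 (85). Interferon-response genes led m3 (17) and cell cycle genes m4 (6). Apoe was high in m1, m2 and m3, at 7043, 8656 and 4957 CPM, against 586 CPM in m0. Of the 43 wild type microglia 41 were in m0. Pooled over libraries, which fill the clusters unequally, C1qa had 1826, 1857 and 1918 CPM, C1qb 1481, 1654 and 1516 CPM, and C1qc 1605, 1516 and 1560 CPM in m0, m1 and m2. The pooled values hide differences by library: C1qb was 1228 CPM in m0 and 2162 CPM in m2 of the neuron knockout, and 1646 and 894 CPM in those of the global knockout. Within m0, which both genotypes filled, C1qb was 863 CPM in wild type and 1312 CPM in 5xFAD, a ratio of 1.52 [1.10, 2.10]. In m0 the astrocyte knockout had 2166 CPM of C1qb, 1.65 [1.27, 2.16] times 5xFAD, and for C1qc the ratio was 1.12 [0.871, 1.45] there, 1.42 [1.09, 1.85] in m1 and 1.5 [1.08, 2.12] in m2. For C1qb it was 1.19 [0.937, 1.51] in m1 and 1.51 [1.06, 2.17] in m2. In m2 the neuron knockout had 2162 CPM of C1qb, 2.03 [1.44, 2.91] times 5xFAD, and the global knockout had 975 CPM of C1qa, 0.546 [0.357, 0.819] times 5xFAD. These m2 values rest on 15 to 19 nuclei per library.

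**Figure D3:**
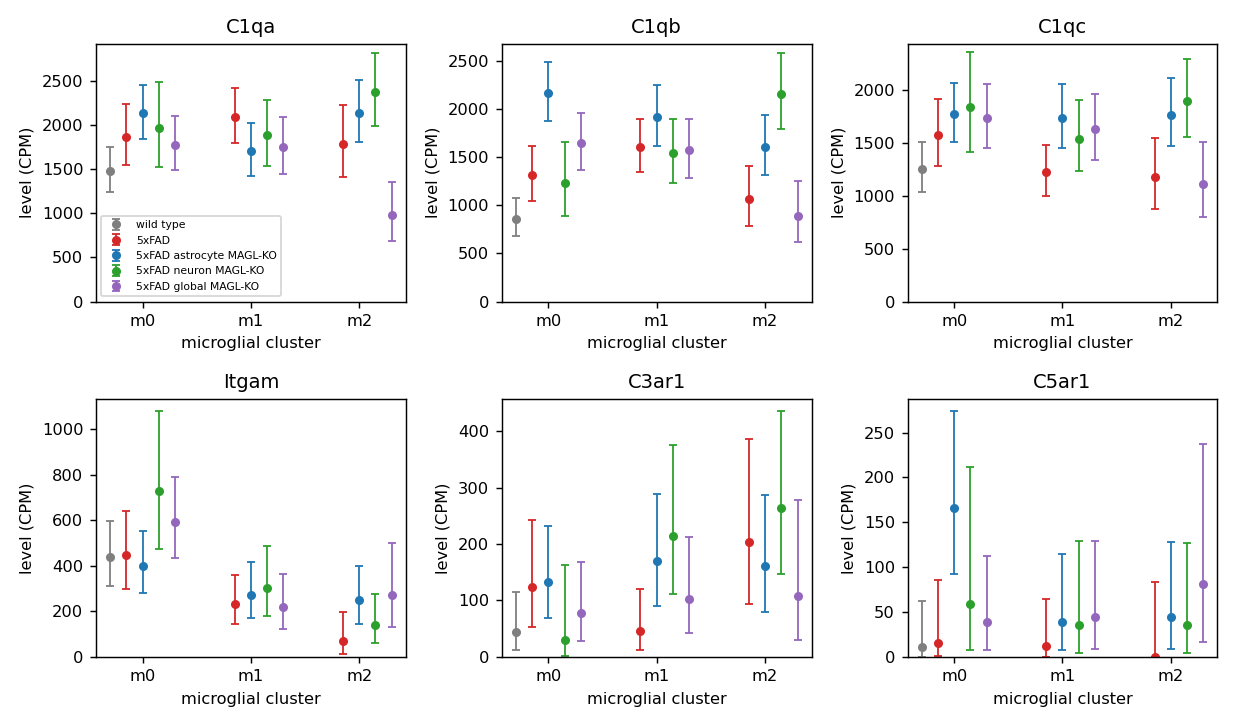
Levels of 6 complement genes (CPM, linear axes from 0) in the microglial clusters m0, m1 and m2 by library, for cluster and library pairs with at least 10 nuclei. Bars are 95% Poisson intervals. C1qb goes from 1228 in m0 to 2162 CPM in m2 in the neuron knockout and from 1646 to 894 CPM in the global knockout.

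Outside microglia, C1q UMIs were few per nucleus but many in sum, since neurons make up most nuclei. Microglia held 64.0% of the 2658 C1qa UMIs of all used nuclei, the unnamed clusters 14.5%, excitatory neurons 13.8% and inhibitory neurons 4.89%. In excitatory neurons C1qa had 0.576 [0.399, 0.805] CPM in wild type and 1.26, 1.71, 1.72 and 1.16 CPM in the other libraries. A C1qa UMI was found in 0.943% to 3.22% of excitatory neurons. After each nucleus was thinned to 1000 UMIs, the share was 0.0570% to 0.227% in excitatory neurons and 0 to 0.968% in oligodendrocytes, which are not known to make C1q. Before thinning the oligodendrocyte share was 0.641% to 1.38%, so the class with the highest share changed with depth, and the comparison does not set a background. The neuronal shares are not read as expression, and their source was not tested. At these levels C1qa and C1qb were past 2-fold higher in 5xFAD than in wild type in both kinds of neurons, where 1.28% (excitatory) and 1.16% (inhibitory) of all genes were. As lower, 1.18% and 1.32% of all genes were past it. The ratios were 2.19 [1.44, 3.39] for C1qa and 3.57 [2.15, 6.19] for C1qb in excitatory neurons, and 2.11 [1.07, 4.41] and 3.11 [1.10, 10.8] in inhibitory neurons. With nuclei thinned, a C1qa UMI was found in 0 to 0.531% of inhibitory neurons and a C1qb UMI in 0 to 0.885%. The log2 ratios there were -1.70 for both genes. A library with 0 UMIs is set to the floor of 3 UMIs in them, so they give no direction. Microglia made up 0.857% of used nuclei in wild type and 1.63% in 5xFAD, and the part of this in the neuronal UMIs was not tested. In the neuron knockout, C3ar1 and C4b in excitatory neurons (0.566 and 0.385 CPM) and C1qc in inhibitory neurons (2.01 CPM) were also past 2-fold above 5xFAD, where 6.93% and 6.17% of all genes were (1.4% and 1.11% lower). No complement gene of the 8 was past 2-fold in neurons of the astrocyte or global knockout. For these, 6.36% and 2.39% of all genes were past it as higher and 1.02% and 1.11% as lower in excitatory neurons, and 5.93% and 1.51% as higher and 0.94% and 1.24% as lower in inhibitory neurons.

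C4b, which encodes the mouse C4 component cleaved by the classical and lectin pathways, had 61.6% of its 949 UMIs over all libraries in oligodendrocytes. In wild type alone, 11.8% of 34 UMIs lay in oligodendrocytes and 58.8% in astrocytes. C4b lies on the minus strand at chr17:34728380-34743882. In wild type 4 of 312 oligodendrocytes held a C4b UMI, each a single one (1.28% [0.350, 3.25]). The share was 73 of 308 in 5xFAD (23.7% [19.1, 28.9]), 86 of 311 in astrocyte MAGL-KO (27.7% [22.8, 33.0]), 95 of 267 in neuron MAGL-KO (35.6% [29.8, 41.7]) and 56 of 218 in global MAGL-KO (25.7% [20.0, 32.0]). Wild type stood apart from the other 4 libraries, whose intervals overlapped in part. Thinned to 1000 UMIs per nucleus, the shares were 0.323%, 11.5%, 17.1%, 18.8% and 17.2%. Nuclei with 3 or more C4b UMIs numbered 0, 14, 11, 30 and 8, and the highest count in 1 nucleus was 1, 6, 4, 9 and 4.

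In CPM the oligodendrocyte levels were 4.50 [1.23, 11.5] in wild type, 133 [112, 157] in 5xFAD, 173 [145, 204] in astrocyte MAGL-KO, 220 [192, 252] in neuron MAGL-KO and 157 [126, 193] in global MAGL-KO. The ratio of 5xFAD to wild type was 29.6 [11.3, 110], where 2.09% of 8005 genes were past 2-fold higher. No knockout library was below 5xFAD: the ratios were 1.29 [1.01, 1.65], 1.65 [1.33, 2.06] and 1.18 [0.895, 1.55], none of them past 2-fold, against 4.85%, 5.65% and 2.59% of genes past 2-fold higher and 2.28%, 1.5% and 3.13% lower. With no doublets removed the global knockout was below 5xFAD, at a log2 ratio of -0.17. The neuron knockout exceeded the global one, at a ratio of 1.40 [1.09, 1.81]. This was seen in Xist nuclei (248 against 167 CPM) and not in those with Y-linked UMIs (117 against 117 CPM). Markers of microglia in these nuclei summed to 156, 137, 168, 192 and 161 CPM and those of astrocytes to 192, 177, 193, 199 and 150 CPM. Neuronal transcripts summed to 791, 875, 442, 1157 and 760 CPM, highest in the neuron knockout. The part of these lists in the C4b levels was not tested.

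**Figure D4:**
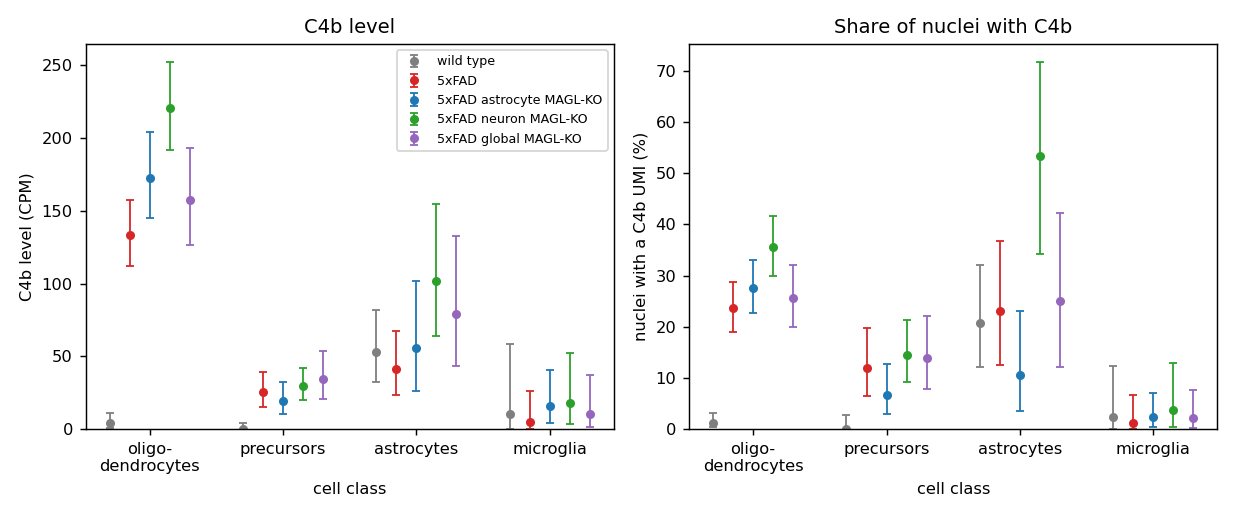
C4b in oligodendrocytes, their precursors, astrocytes and microglia by library: the level (CPM, linear axis from 0) on the left and the share of nuclei with a C4b UMI (%) on the right. Bars are 95% Poisson intervals on the left and Clopper-Pearson intervals on the right. In oligodendrocytes wild type (4.50 CPM) stands far below the other 4 libraries (133 to 220 CPM), while in astrocytes wild type (52.9 CPM) lies among them.

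Oligodendrocytes formed several clusters, and C4b differed between genotypes in the 2 large ones. In the larger it was 4.87, 176, 236, 351 and 225 CPM, and in the second 5.40, 134, 165, 198 and 131 CPM. The nuclei with a C4b UMI (314) were compared with those without (1102) over all 5 libraries, which had median depths of 2552 and 2560 UMIs. Among 1742 genes with enough UMIs, the largest ratios were those of Nrxn3, a synaptic adhesion gene (304 against 77.3 CPM, 3.93-fold), Rhoj (3.01-fold), Cadps2 (2.74-fold), Syne2 (2.72-fold) and Adarb2 (2.48-fold). These ratios compare nuclei pooled from libraries that fill the 2 groups unequally (95 of the 314 were of the neuron knockout, and 172 of the 1102), and those of Nrxn3 and Adarb2 did not hold within libraries. Nrxn3 was 13.5-fold higher in nuclei with a C4b UMI in 5xFAD (252 UMIs in 73 nuclei), but stood at 0.672 [0.287, 1.41], 0.360 [0.155, 0.742] and 0.547 [0.208, 1.22] in the knockouts. Adarb2 stood at 5.59, 3.68, 0.480 and 0.793 in the 4 libraries with the transgenes. Rhoj stood at 3.47 [1.88, 6.43], 1.40 [0.885, 2.18], 4.57 [2.92, 7.32] and 2.71 [1.87, 3.90] in these, Cadps2 at 3.04, 2.30, 2.66 and 2.22, and Syne2 at 3.70, 2.99, 1.69 [0.989, 2.87] and 2.43. In wild type 4 nuclei had a C4b UMI, too few to compare.

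C4b levels also differed between the kinds of nuclei. In Xist oligodendrocytes the levels were 2.22, 153, 234, 248 and 167 CPM, and in Y-linked ones 3.95, 112, 77.1, 117 and 117 CPM. The Xist nuclei were higher in the 4 libraries with the transgenes, at ratios of 1.37 [0.936, 2.00], 3.04 [1.80, 5.44], 2.13 [1.32, 3.62] and 1.43 [0.824, 2.61]. Both kinds showed the difference between 5xFAD and wild type, where each wild type group held a single UMI: the ratios were 69.0 [11.9, 2765] and 28.4 [4.88, 1142]. The differences between knockouts and 5xFAD did not appear in both kinds. Astrocyte MAGL-KO stood at 1.53 [1.10, 2.13] of 5xFAD in Xist nuclei and 0.687 [0.373, 1.21] in Y-linked nuclei, and neuron MAGL-KO at 1.62 [1.21, 2.19] and 1.04 [0.580, 1.78]. The neuron knockout library was also the one with the highest share of Xist nuclei, 82.0%.

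**Figure D5:**
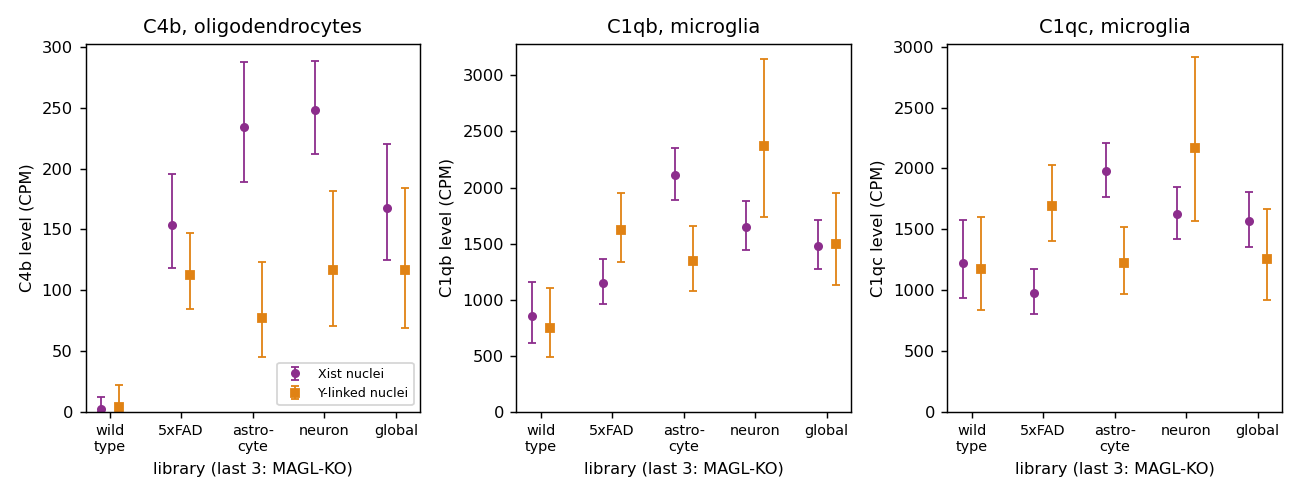
Levels (CPM, linear axes from 0) of C4b in oligodendrocytes and of C1qb and C1qc in microglia, by library, in nuclei with Xist (circles) and in nuclei with Y-linked UMIs (squares). Bars are 95% Poisson intervals. C4b is higher in Xist nuclei of the astrocyte knockout (234 against 77.1 CPM), and C1qc of 5xFAD is lower in Xist nuclei (974 against 1693 CPM).

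In oligodendrocyte precursors C4b had 0, 20, 14, 30 and 20 UMIs, or 0, 25.3, 19.2, 29.4 and 34.6 CPM. The class held 3 clusters: 478 nuclei led by Lhfpl3, Vcan and Pdgfra, 98 with Bcas1, Tcf7l2 and Enpp6, genes of precursors that are becoming oligodendrocytes, among their leading genes, and 31 with cell cycle genes. In the first the levels were 0, 27.6, 23.7, 33.4 and 34.6 CPM, and in the second 0, 30.4, 4.69, 22.2 and 11 CPM on at most 6 UMIs per library. For the 135 wild type nuclei a floor of 3 UMIs stands for 3.53 CPM. With wild type set to that floor, the ratio of 5xFAD to wild type was 7.17, where 3.26% of genes were past 2-fold higher and 2.64% lower. This ratio depends on the floor and is no lower bound, and its log2 ran from 1.54 to 4.88 under other settings. The knockouts stood at 0.757 [0.354, 1.58], 1.16 [0.639, 2.16] and 1.37 [0.698, 2.68] of 5xFAD, none of them past 2-fold. Their directions were not stable: on the log2 scale the neuron knockout went from 0.22 to -0.90 when nuclei were thinned and to -1.43 in Y-linked nuclei (15 UMIs), and the global knockout from 0.45 to -0.71 and -1.06. The astrocyte knockout went from -0.40 to 0.05 with no doublets removed. Over all genes 5.68%, 4.68% and 2.49% were past it as higher there and 1.39%, 2.64% and 3.17% as lower. Markers of oligodendrocytes summed to 1640 CPM in wild type precursors and 2214 CPM in those of 5xFAD, and their part in this was not tested. In astrocytes no such difference was seen: C4b had 52.9 [32.3, 81.7] CPM in wild type, 41.5 [23.7, 67.4] in 5xFAD, and 55.5, 102 [63.9, 154] and 79.0 CPM in the knockouts. The ratio of 5xFAD to wild type in astrocytes was 0.785 [0.380, 1.59], or -0.35 on the log2 scale, with -0.04 in Xist and 0.62 in Y-linked nuclei, and 4.98% of genes were past 2-fold higher and 3.94% lower. The astrocyte and global knockouts stood at 1.34 [0.542, 3.13] and 1.90 [0.860, 4.16] of 5xFAD, where 6.4% and 4.53% of genes were past 2-fold higher and 10.7% and 7.31% lower. Neither gives a direction. The astrocyte knockout's log2 ratio of 0.42 was below 0 in 7 alternatives, among them -0.10 in Xist nuclei, -2.50 in Y-linked nuclei (10 UMIs) and -1.66 when thinned. The global knockout's of 0.93 became -1.28 when thinned, -1.13 in Y-linked nuclei and -0.34 with classes from marker scores. The neuron knockout was past 2-fold above 5xFAD, at 2.46 [1.23, 5.00], where 6.18% of genes were, on 22 against 16 UMIs. That ratio did not hold when nuclei were thinned (a log2 ratio of -0.01) or in Y-linked nuclei (-0.87). Neuronal transcripts in astrocytes were lower in the neuron knockout than in 5xFAD (3815 against 9958 CPM), and their part in the result was not tested. In microglia C4b was sparse, with 1, 1, 4, 3 and 2 UMIs.

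C4a is a close relative of C4b at chr17:34809092-34823464, and 35.2% of the 50-base windows of C4b transcripts also occur in C4a. In oligodendrocytes C4a held 1 UMI in wild type and 0 in the other libraries, against 139 for C4b in 5xFAD. The sources used here do not say how reads that match both genes were counted.

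Accessible regions were called by the authors separately in each library, so a region's presence depends on each library's depth. Within 1000 bases of the gene start, C1qa and C1qc had a region in all 5 libraries, C1qb in 5xFAD and the astrocyte and neuron knockouts, and C4b in wild type, 5xFAD and the neuron knockout. C3, C3ar1, C5ar1 and Itgam had none. The C1qb regions cover the promoter shown above (chr4:136885899-136886767 in 5xFAD), and so does 1 of the 2 C1qc regions of 5xFAD (chr4:136892550-136893241). In the other 4 libraries the C1qc region lay further upstream, such as chr4:136893744-136894609 in wild type. In oligodendrocytes the C4b region held 8 transposase cut sites in wild type, 53 in 5xFAD and 95 in neuron MAGL-KO. These are 3.56, 27.7 and 46.2 CPM of the cut sites of the class within the library's own regions, which differ between libraries. The wild type region (chr17:34744316-34745028) does not reach the gene start, while those of 5xFAD (chr17:34743763-34744440) and neuron MAGL-KO (chr17:34743682-34744423) cover it. They cover 713, 678 and 742 bases, with 4.99, 40.9 and 62.2 per kilobase on that scale. Since the regions differ in position, no ratio is given. Excitatory neurons had 1.5, 0.826 and 1.04 CPM of cut sites in the same regions. In microglia the C1qa region held 11, 70, 51, 18 and 67 cut sites, or 29.4, 91.8, 59.8, 31.0 and 110 CPM of cut sites, over 738, 640, 789, 820 and 1070 bases. Per kilobase these were 39.8, 143, 75.8, 37.8 and 103, so the highest library depended on the scale, and no order is read from them.

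C3, the component on which all complement pathways converge, was nearly undetected. It had 17 UMIs in the 26782 nuclei used, and in microglia 1 UMI in 5xFAD and 0 elsewhere. For wild type microglia a floor of 3 UMIs stands for 31.5 CPM or 6.98% of 43 nuclei, and the exact 95% upper bounds for a count of 0 are 38.8 CPM and 8.22%. No ratio is given for C3, and a count of 0 cannot tell absence from a level below these upper bounds.

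C3ar1, the receptor of the C3 fragment C3a, had 63.1 [23.1, 137] CPM in wild type microglia (6 UMIs), 114 [73.2, 170] in 5xFAD, 154 [109, 210] in astrocyte MAGL-KO, 167 [111, 241] in neuron MAGL-KO and 98.7 [59.4, 154] in global MAGL-KO. All 5 intervals overlapped. The ratio of 5xFAD to wild type was 1.81 [0.721, 5.42] and those of the knockouts to 5xFAD were 1.35, 1.46 and 0.864, each with an interval that included 1. On the log2 scale the astrocyte knockout went from 0.43 to -0.66 in Y-linked nuclei. The global knockout went from -0.21 to 0.17 with classes from marker scores and to 0.18 in Xist nuclei. The neuron knockout stayed between 0.04 and 0.82. With size factors in place of CPM, which shifted the median log2 ratio of all genes from 0.02 to 0.27, C3ar1 was past 2-fold higher in 5xFAD than in wild type (1.11 on the log2 scale). Pooled over libraries C3ar1 was 87.0 [59.1, 123] CPM in m0, 131 [92.8, 180] in m1 and 189 [134, 258] in m2. Without wild type, which had 41 nuclei in m0 and none in m2, m0 had 101 [66.6, 147] CPM, and its interval overlapped that of m2. Microglia held 37.1% of the 313 C3ar1 UMIs of all used nuclei, excitatory neurons 28.4% and the unnamed clusters 24.9%.

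C5ar1, the receptor of C5a, was sparse, with 2, 3, 23, 8 and 9 UMIs in microglia, or 21.0, 14.3, 90.6, 47.6 and 46.7 CPM. It was found in 4.65% and 3.70% of wild type and 5xFAD microglia and in 15.6%, 13.2% and 8.79% of those of the knockouts. The ratio of astrocyte MAGL-KO to 5xFAD was 6.35 [1.92, 33.0], the only ratio of the 8 genes past 2-fold in microglia over the 4 comparisons. It rests on 3 UMIs in 5xFAD. With nuclei thinned to 1000 UMIs, C5ar1 had under 20 UMIs and was not called, at a log2 ratio of 1.87 (13 UMIs). The same held in either kind of nuclei alone, at 2.13 in Xist nuclei (12 against 2 UMIs) and 3.12 in Y-linked nuclei (9 UMIs). The neuron and global knockouts stood at 3.34 [0.801, 19.5] and 3.27 [0.817, 18.8]. Both had under 20 UMIs with 5xFAD, so neither could be called. Astrocyte MAGL-KO stood at 1.90 [0.822, 4.92] of the neuron and 1.94 [0.865, 4.76] of the global knockout, so it is not set apart from them. In m0 the UMIs were 1, 1, 15, 2 and 3, so most of those of the astrocyte knockout came from this cluster. No C5ar1 UMI was found in oligodendrocytes, precursors or astrocytes.

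Itgam, which pairs with the beta chain Itgb2 to form complement receptor 3, had 420 [300, 572] CPM in wild type microglia, 300 [230, 383] in 5xFAD and 323 [257, 401], 310 [231, 406] and 384 [302, 482] in the knockouts. All intervals overlapped, and the ratio of 5xFAD to wild type was 0.713 [0.472, 1.09]. Pooled over libraries it was 491 [421, 569] CPM in m0, 255 [201, 321] in m1 and 184 [130, 253] in m2, so m0 stood above m1 and m2, and m3 had 573 [363, 860] CPM on 17 nuclei. Within m0 the wild type and 5xFAD levels were 437 and 448 CPM, a ratio of 1.02 [0.611, 1.70]. Microglia held 82.7% of all Itgam UMIs, and 45.1% to 55.8% of microglia had 1.

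Of 49 further complement genes in 7 roles, few could be read in microglia: 5 to 7 had at least 20 UMIs in a comparison. Among membrane regulators Csmd3 ranged from 5060 to 9552 CPM and Cr1l, a rodent inhibitor of C3 convertases, from 105 to 142 CPM. Itgb2, the partner of Itgam, had 73.6, 109, 90.6, 125 and 119 CPM, and Itgax, the alpha chain of complement receptor 4, had 0, 52.3, 35.5, 41.7 and 41.5 CPM. C5ar2, a second receptor of C5a, ranged from 0 to 36.3 CPM. Proteases of the classical pathway were near absent, with 5 UMIs of C2 and none of C1ra, C1rb, C1s1, C1s2 or C4a. Of the lectin pathway Masp1 had 31.5 to 80.9 CPM and Masp2 up to 21.0 CPM, of the alternative pathway Cfp had 1 UMI, and no terminal component was detected.

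In 5xFAD against wild type microglia, 1 of 6 tested genes of the list was past 2-fold higher (Masp1, 2.57 [0.742, 13.7]) and 1 lower (Csmd1, 31 against 6 UMIs, 0.0876 [0.0299, 0.213]), while 10.8% and 4.94% of all genes were. Csmd1 is an inhibitor of complement that neurons express strongly, and neuronal transcripts in microglia summed to 2070 CPM in wild type and 1584 CPM in 5xFAD; their part in the result was not tested. The median log2 ratio of the list was -0.13, against 0.02 over all genes. Csmd1 was past 2-fold higher than in 5xFAD in the astrocyte (2.07 [0.759, 6.51]) and global knockouts (3.09 [1.16, 9.58]), and Masp1 lower in the astrocyte knockout (0.438 [0.172, 1.04]). That is 1 of 7 higher and 1 of 7 lower in the astrocyte knockout, where 4.54% and 3.57% of all genes were, and 1 of 6 higher in the global knockout, where 3.23% were. In the neuron knockout 0 of 5 were past it (4.19% and 4.27% of all genes).

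In oligodendrocytes 9 to 11 genes of the list had enough UMIs. Clu, clusterin, an inhibitor of the terminal complex, had 15.7 CPM in wild type and 6.71 in 5xFAD (0.426 [0.146, 1.13]), and Sez6l had 50.6 and 18.2 CPM (0.360 [0.199, 0.628]), so 2 of 10 were past 2-fold lower and 0 higher. Here 2.54% of all genes were past it as lower. In the neuron knockout Clu (3.22 [1.32, 8.97]) and Csmd1 (2.08 [1.63, 2.65]) were past it above 5xFAD, 2 of 11, where 5.65% of all genes were, while 0 of 9 were in each of the others. Neuronal transcripts in oligodendrocytes were also higher in the neuron knockout (1157 against 875 CPM), and their part in this was not tested. Masp1 had 13.5, 24.9, 27.7, 44.2 and 39.7 CPM, lowest in wild type. Csmd3 ranged from 1725 to 2128 CPM, Sez6l2 from 307 to 391 CPM and Csmd2 from 224 to 295 CPM. Cfp, properdin, had 4.79 to 10.4 CPM and Cr2 1.73 to 13.4 CPM. In precursors 0 of 11 genes of the list were past 2-fold in each of the 4 comparisons, where 1.39% to 5.68% of all genes were in either direction, so the count says nothing particular about the list. Masp1 had 29.1 to 43.8 CPM there, Clu 58.8 to 134 CPM and Csmd2 641 to 690 CPM.

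In astrocytes Clu was the main soluble regulator, with 923, 926, 1270, 1261 and 699 CPM. Vtn, vitronectin, had 0 to 36.3 CPM, Cd46, a cofactor in the cleavage of C3b, 61.0 to 102 CPM and Cr2 15.6 to 23.2 CPM. Of 9 tested genes Susd4 (3.56 [1.59, 9.0]) and Sez6l (2.05 [0.960, 4.66]) were past 2-fold higher in 5xFAD than in wild type, where 4.98% of all genes were. Neuronal transcripts in astrocytes were also higher in 5xFAD (9958 against 6380 CPM), and their part in this was not tested. The same 5 genes, Csmd1, Csmd2, Csmd3, Susd4 and Sez6l, were past 2-fold lower in the astrocyte and neuron knockouts than in 5xFAD, which both share. The ratios of Csmd3 were 0.133 [0.0776, 0.213] and 0.123 [0.0742, 0.194], and 10.7% and 9.39% of all genes were past 2-fold lower there. Neuronal transcripts in astrocytes were lowest in these 2 libraries (2519 and 3815 CPM against 9958 CPM in 5xFAD), and their part in this was not tested. In the global knockout 0 of 9 genes of the list were past 2-fold in either direction, where 4.53% of all genes were higher and 7.31% lower.

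In excitatory neurons 33 to 35 genes of the list had enough UMIs, and 0 of 33 were past 2-fold in 5xFAD against wild type, where 1.28% of all genes were higher and 1.18% lower. Against 5xFAD, C8a, Cfi and C4bp were past it as higher in the astrocyte knockout (3 of 33, with 6.36% of all genes), and Cfi, C4bp and Vtn in the neuron knockout (3 of 34, with 6.93% of all genes), each at under 1 CPM. These shares are near those over all genes. The genes of the list with the highest CPM in these neurons were Csmd1 (6397 to 6908), Csmd3 (1678 to 2034) and Csmd2 (312 to 399), followed among the soluble proteins by Clu (11 to 17) and Cfp (6.98 to 8.87). The median of all genes was itself shifted by 0.23 and 0.20 on the log2 scale in these 2 comparisons. Cd59a, a membrane inhibitor of the terminal complex, was lower in the neuron knockout (1.11 against 2.67 CPM, 0.415 [0.295, 0.575]), where 1.4% of all genes were. In the global knockout Hc and Vtn were past 2-fold higher (2 of 35, with 2.39% of all genes) and Cd93 lower (0.474 [0.305, 0.729]), where 1.11% of all genes were. In inhibitory neurons Serping1, the C1 inhibitor, was the 1 gene of 20 past 2-fold lower in 5xFAD than in wild type (0.427 [0.147, 1.11]), where 1.32% of all genes were. It was also the 1 of 20 past 2-fold higher than 5xFAD in the astrocyte (3.26 [1.36, 9.01]) and neuron knockouts (2.01 [0.757, 5.87]), which is near the 5.93% and 6.17% of all genes. These ratios of Serping1 all share the 5xFAD library. The gene had 68 UMIs over the libraries, at 0.561 to 1.83 CPM. The intervals of 5xFAD to wild type and of the neuron knockout include 1. C2 was the 1 of 19 lower in the global knockout (0.419 [0.143, 1.11]), with 1.24% of all genes.

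The genes most like each complement gene across 30 profiles (6 classes in 5 libraries) were found by Pearson correlation of log2(CPM + 5) among 13486 genes. They were Siglech, Bin2 and Tlr7 for C1qa (r of 0.994 for the first), Cd68, Trem2 and Mpeg1 for C1qb (0.994), Naip2, Ctss and Irf8 for C1qc (0.995), Fcgr3, Samsn1 and Mpeg1 for C3ar1 (0.994) and Ikzf1, Arhgap45 and Bin2 for Itgam (0.999). For C4b the nearest were Rgs3, Glt8d1 and Neat1, at 0.872, 0.865 and 0.858. The profiles of a library share its depth and the classes differ far more than the libraries, so these values mostly describe the class in which a gene is found. C3 and C5ar1 had fewer than 200 UMIs over the profiles and were not compared.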

How the data were processed

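Nuclei of mouse hippocampus were profiled by 10x Multiome, 1 library for each of 5 genotypes. Per the file headers and the submitters' processing notes, the authors made UMI counts per gene and transposase cut site counts per accessible region with Cell Ranger ARC 2.0.0 on mm10. Seurat is also named there, with no role given. The deposited counts are raw and were not normalized.

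A nucleus was kept if it had 500 or more genes and no more than 5% mitochondrial UMIs. The automatic threshold of the doublet caller Scrublet marked 0 to 2 nuclei in 4 libraries and 2305 in the other, so the highest scores were removed at the expected rate of 0.8% per 1000 nuclei. Nuclei were clustered with scanpy 1.11.5 and leidenalg 0.10.2 (2000 variable genes, complement genes left out, 40 principal components, 15 neighbours), and classes were named from marker lists. Clusters in which transcripts typical of both sexes often met in single nuclei were left unnamed, even where a list matched. The 8 genes, the list of 49 other complement genes and the markers were chosen with earlier results of these data known. All 8 genes are named. Of the list, those past 2-fold are named and, of the 3 highest of each role, those with at least 20 UMIs in microglia, oligodendrocytes or astrocytes and a few in the other classes, and the 3 genes most like each of the 8. The values of 1 gene of the list are not reported here. Ratios were computed with numpy 2.4.6 and scipy 1.17.1. On simulated data for 5xFAD against wild type, 99.5% of 200 genes with a 4-fold change among 567 were recovered. This does not show how well smaller differences, such as those of C1q in microglia, would be recovered. Values were recomputed under 11 other settings, and under 1 chosen after seeing the data (without shared barcodes).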

Additional observations from a re-analysis of the deposited data

Results flagged for a closer look

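The difference in C4b between 5xFAD and wild type was not alike in glial classes. The log2 ratio was 4.89 in oligodendrocytes and -0.35 in astrocytes, a gap of 5.24. The astrocyte value does not give a direction: its interval includes 0, and it was 1.28 with nuclei thinned to 1000 UMIs. The log2 ratio was 2.84 in oligodendrocyte precursors, with wild type set to the floor of 3 UMIs, a gap of 3.19 to astrocytes. That value depends on the floor and is no lower bound. The difference between classes was not tested, since each rests on 1 library per genotype.

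In microglia, Xist nuclei and those with Y-linked UMIs differed in direction against 5xFAD for C1qb and C1qc. For C1qb in the astrocyte MAGL-KO library the log2 ratios were 0.88 and -0.27, a gap of 1.15. For C1qc in that library they were 1.02 and -0.47, a gap of 1.49, and in the global MAGL-KO library 0.69 and -0.44, a gap of 1.12. These differences were not tested either. The astrocyte comparisons rest on 43 and 76 microglia with Xist and 29 and 30 with Y-linked UMIs, and the global one on 57 and 17 microglia of the knockout.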

How the results depend on the processing

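Of 716 values of single genes recomputed under the 12 alternatives, 628 moved by less than their counting interval, 83 moved by more and 5 that were past 2-fold changed direction. Counting also values that were not past 2-fold, and C4b in oligodendrocytes, 91 of 764 changed sign, 19 of them in microglia. The 5 were C1qa in inhibitory neurons for 5xFAD against wild type with nuclei thinned to 1000 UMIs (log2 ratio -1.70), C1qb there when thinned (-1.70) and in Y-linked nuclei (-0.35), and C4b in astrocytes for neuron MAGL-KO against 5xFAD when thinned (-0.0138) and in Y-linked nuclei (-0.8704). All these counts set a library at 0 to the floor of 3 UMIs. A change of sign on few UMIs can thus come from the floor, and the thinned values of C1qa and C1qb give no direction. The number of complement genes past 2-fold in microglia of 5xFAD against wild type, 0 in the report, was 1 with median-of-ratios size factors, 1 with a mean over nuclei (C3ar1 in both), 2 with classes from marker scores (C1qb and C3ar1) and 1 in Y-linked nuclei (C1qb). These size factors moved the median log2 ratio of all genes there from 0.02 to 0.27. For astrocyte MAGL-KO against 5xFAD the number was 0 in place of 1 when thinned and in Y-linked nuclei, where C5ar1 fell under the minimum of 20 UMIs (log2 ratios of 1.87 and 3.12). C5ar1 fell under it in Xist nuclei too (2.13, on 12 against 2 UMIs), where C1qc was past 2-fold instead (1.02). C4b in oligodendrocytes against 5xFAD had log2 ratios of 0.37, 0.72 and 0.24 in the astrocyte, neuron and global knockouts, which became -0.541 and 0.0538 in Y-linked nuclei for the first 2, and -0.17 with no doublets removed for the global knockout. The other causes were not tested. A region window of 500 bases left 214 of 240 accessibility values as they were and changed those of C1qc. Leaving out nuclei whose barcode another library holds moved none of 60 values beyond its counting interval. No ratio of C3 in microglia could be computed. No paired analysis was possible because each genotype has 1 library. Depth limits C3, C4b, C5ar1 and C3ar1 most in microglia, at 1, 11, 45 and 116 UMIs.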
